A study of Mus musculus with 9 samples.

Results

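The mature miRNAs mmu-miR-128-3p, mmu-miR-185-5p and mmu-miR-185-3p, chosen by name as miRNAs linked to lipid metabolism in the study or as the partner arm of such a miRNA, are 3 of the 817 miRNAs in the sRNA-seq count table. All 3 had rows in the count table and reads in all 9 libraries. The libraries came from preleukemic Meis1/Hoxa9 cells, which are c-Kit-enriched fetal liver cells of C57BL/6 mouse embryos transduced with retroviruses encoding Meis1 and Hoxa9 and grown with stem cell factor, IL-6 and IL-3. The 5 control libraries (Tut4/7 CTL, hereafter CTL) are labelled WT, and the 4 knockout libraries (Tut4/7 cKO, hereafter cKO) carry the label Tut4/7 Vav-iCre KO. By the study's methods both genotypes carry floxed Tut4 and Tut7, which in cKO cells were deleted by an iCre under the Vav promoter, active in blood cells. The study's methods describe replicates of such cells as coming from independent animals or embryos, while the labels number the libraries without naming an embryo.

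A miRNA is cut from a hairpin precursor, and the strand that stays in Argonaute guides it to mRNAs that pair with its seed (bases 2 to 8). TUT4 and TUT7 are terminal uridylyl transferases that add uridines to RNA 3′ ends, and an added uridine is read as a T. miR-128-3p is best known from brain and is also known for repressing the LDL receptor and the cholesterol exporter ABCA1. miR-185-5p is known for repressing the sterol regulator SREBP2 and the HDL receptor SR-BI, and miR-185-3p comes from the other arm of the same hairpin.

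The mature sequences that RefSeq lists for GRCm38.p6 are shown with the seed in capitals, because the seed is the part that selects targets. miR-27a-3p and miR-27b-3p, which are also linked to lipid metabolism, are shown for comparison with miR-128-3p, and miR-185-5p is named only.
miR-128-3p: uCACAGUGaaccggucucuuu
miR-185-3p: aGGGGCUGgcuuuccucuggu
miR-27a-3p: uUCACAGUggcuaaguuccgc
miR-27b-3p: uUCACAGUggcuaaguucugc
None of the other miRNAs among the 707 of the table with a RefSeq sequence had the seed of miR-128-3p or of miR-185-3p. Bases 1 to 8 of miR-128-3p were the same as bases 2 to 9 of miR-27a-3p and of miR-27b-3p, so their seeds overlap with a shift of 1 base.

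In GRCm39 with the GENCODE vM39 annotation, Mir128-1 is at chr1:128130098-128130167 on the plus strand in an intron of R3hdm1, where an intron of the lncRNA Gm71087 lies on the opposite strand. Mir128-2 is at chr9:111947704-111947779 on the minus strand in an intron of Arpp21, and Mir185 is at chr16:18145265-18145329 on the minus strand in an intron of Tango2. The bases after the mature 3′ end decide whether a read with an added T could also be a copy of the genome. The RefSeq hairpins of miR-128-3p are printed with the mature sequence in capitals, and miR-185-3p is printed with the hairpin bases that follow it in capitals.
Mir128-1: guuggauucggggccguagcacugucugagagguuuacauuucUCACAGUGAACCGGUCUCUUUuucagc
Mir128-2: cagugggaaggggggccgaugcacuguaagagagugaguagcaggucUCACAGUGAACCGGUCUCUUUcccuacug
miR-185-3p: aggggcuggcuuuccucugguCCUU
At Mir128-1 the mature sequence is followed by 2 genomic Ts and at Mir128-2 by none. miR-185-3p is not followed by a T, and miR-185-5p is followed by 1.

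Library totals ranged from 209702 to 316620 miRNA reads in CTL and from 175462 to 479342 in cKO libraries. CTL replicate 2 stood apart from the remaining controls in uridylation. Over 135 other miRNAs that had 10 or more reads throughout, its median share of uridylated reads was 0.606%, where the other 4 controls had 3.49 to 4.33% and the cKO libraries 0.0751 to 0.204%. Mean uridylated shares of the 3 miRNAs are therefore given with and without it, and the fits without it are given with the alternatives at the end. Of 5 miRNAs listed as markers of blood cells, 3 had a row under the listed name, and their summed level was 37902 to 70051 CPM in CTL and 43536 to 71441 CPM in cKO libraries. The other 2, miR-142-3p and miR-142-5p, have rows under the mouse name miR-142a and were not matched. Listed markers without a row were miR-196b-5p of the HOXA cluster, erythroid miR-144-3p, muscle miR-133a-3p and neuronal miR-124-3p. In means of CTL and cKO libraries, miR-181a-5p was at 44952 and 55450 CPM, miR-223-3p at 6874 and 4015 CPM and miR-150-5p at only 38.3 and 153 CPM. Markers of other cell types were also read, with epithelial miR-200c-3p at 1109 and 644 CPM, liver miR-122-5p at 938 and 996 CPM, endothelial miR-126a-3p at 157 and 143 CPM and erythroid miR-451a at 1.48 and 2.96 CPM. Epithelial miR-375-3p was at only 1.18 and 1.88 CPM, neuronal miR-9-5p at 5.02 and 2.39 CPM and muscle miR-1a-3p at 1.93 and 1.36 CPM. Their part in the results was not tested. Tut4 and Tut7 mRNA is not measured by sRNA-seq.

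miR-128-3p was by far the most abundant of the 3, and its abundance did not pass the test between genotypes. It had 570, 722, 1163, 834 and 1635 reads in CTL replicates 1 to 5 and 613, 2094, 2016 and 748 reads in cKO replicates 1 to 4. These gave 2546, 2720, 3420, 2910 and 6144 CPM in CTL and 4186, 5689, 4602 and 1881 CPM in cKO libraries (CPM, read counts scaled to a common library size by TMM). The groups overlapped, since the highest value was in CTL replicate 5 and the lowest in cKO replicate 4. The mean was 3548 ± 1488 CPM (SD, n = 5) in CTL and 4090 ± 1603 CPM (SD, n = 4) in cKO libraries. The log2 fold change was 0.20 (95% interval −0.66 to 1.07, adjusted P = 0.829, edgeR's quasi-likelihood test over 205 miRNAs). In such bulk libraries, fewer cells that express a miRNA and less of it per cell cannot be told apart.

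miR-185-5p was at 161, 237, 209, 258 and 147 CPM in CTL and 95.6, 168, 173 and 350 CPM in cKO libraries, on 14 to 139 reads. cKO libraries held both the lowest value, in replicate 1, and the highest, in replicate 4. Its log2 fold change was −0.03 (95% interval −0.87 to 0.81, adjusted P = 0.982, edgeR's test).

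miR-185-3p was at 125, 158, 99.99, 136 and 150 CPM in CTL libraries and at 81.9, 67.9, 63.9 and 75.4 CPM in cKO libraries. Every cKO library was below every CTL library, which held in this direction for 7 of the 205 miRNAs tested (3.41%). The mean was 134 ± 22.9 CPM (SD, n = 5) in CTL and 72.3 ± 8.01 CPM (SD, n = 4) in cKO cells, on 12 to 42 reads per library. The log2 fold change of −0.89 (SE 0.28, 95% interval −1.51 to −0.28) had an unadjusted P of 0.00877 and did not pass after adjustment (adjusted P = 0.163, edgeR's test). In 15 alternatives its adjusted P lay between 0.0596 with DESeq2 and 0.515 without a filter on low counts. Across all miRNAs 1 of 205 passed for abundance (0.488%), which was none of these 3, and 31 (15.1%) had an unadjusted P under 0.05. When only reads without added Ts were counted, a comparison chosen after the data were seen, miR-185-3p was at 112 ± 27.6 and 72.3 ± 8.01 CPM. The groups still did not overlap, with a log2 fold change of −0.77 (adjusted P = 0.271, edgeR's test). How many of the 205 miRNAs were separated in this way by such reads was not counted, so this separation has no background rate beside it.

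**Figure D1:**
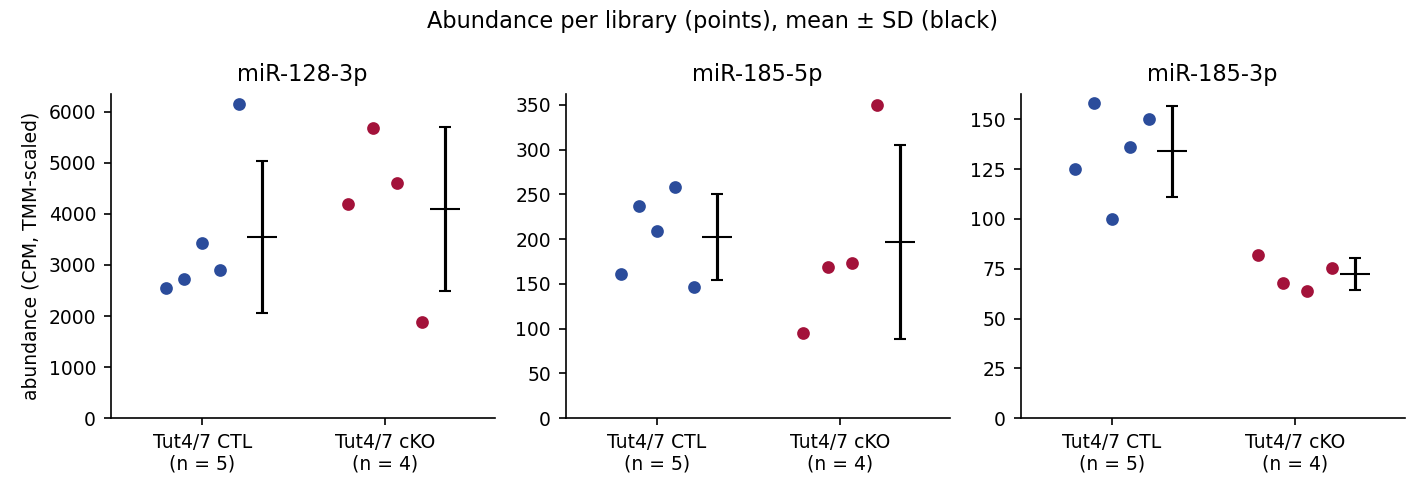
Abundance of miR-128-3p, miR-185-5p and miR-185-3p in CPM on linear axes that start at 0, with 1 point per library and the mean ± SD in black for 5 CTL and 4 cKO libraries. The genotypes overlap for miR-128-3p and miR-185-5p, whereas all cKO values of miR-185-3p (63.9 to 81.9 CPM) lie below the lowest CTL value (99.99 CPM).

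In order of mean level over all 9 libraries, miR-128-3p (3789 ± 1467 CPM, SD) ranked 40 of 817, miR-185-5p (200 ± 74.3 CPM) ranked 115 and miR-185-3p (107 ± 36.6 CPM) ranked 145. Their mature lengths are 21, 22 and 21 bases, so the levels are comparable per molecule, although ligation of adapters can differ between sequences. The neighbours in this order differed from them by less than the SD. miR-23a-3p (3823 ± 1947 CPM) and miR-155-5p (3253 ± 2336 CPM) stood next to miR-128-3p. miR-185-5p lay between miR-3057-5p (204 ± 60.1 CPM) and miR-378a-5p (199 ± 49.6 CPM), and miR-185-3p between miR-326-3p (111 ± 78.6 CPM) and miR-690 (102 ± 56.8 CPM).

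By Pearson's r of log2 CPM over the 9 libraries, as a description of libraries that share their depth and genotype, the miRNAs most like miR-128-3p were miR-23b-5p (r = 0.95), miR-700-3p (0.93) and miR-1964-3p (0.93). For miR-185-5p they were miR-200b-3p (0.96), miR-186-5p (0.94) and miR-361-5p (0.93). Those most like miR-185-3p were miR-7a-5p (0.88), miR-704 (0.83) and miR-18a-3p (0.79). Each of these was among the highest of 204 compared. Between the arms of miR-185 r was 0.10, on 12 to 139 reads per library, where counting error brings r nearer to none. Between miR-128-3p and miR-185-5p r was −0.68. Intervals of r over the 9 libraries were not computed.

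Over all libraries miR-185-3p was the less abundant arm of miR-185, with 32.6% of the reads of both arms. By this measure miR-185 ranked 11 from the most even of 84 hairpins, whose less abundant arm had a median share of 6.76%. miR-185-3p made up 43.8, 40, 32.4, 34.5 and 50.6% of miR-185 reads in CTL replicates 1 to 5 and 46.2, 28.7, 26.9 and 17.8% in cKO replicates 1 to 4. cKO replicates 2 to 4 were below all CTL libraries, and cKO replicate 1, with 26 reads over both arms (exact 95% interval 26.6 to 66.6%), lay within them. The mean share was 40.3% ± 7.33 (SD, n = 5) in CTL and 29.9% ± 11.9 (SD, n = 4) in cKO cells. The difference did not pass (exact permutation test on both sides, unadjusted P = 0.159). Without cKO replicate 1 the difference changed from −10.4 to −15.8 percentage points (P = 0.0357 by exact permutation, which is the lowest possible with 5 and 3 libraries). Without cKO replicate 4 it was −6.32 percentage points (P = 0.357, exact permutation test).

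Tested over all hairpins, the odds of a 3p against a 5p read of miR-185 had a log2 fold change of −0.77 (95% interval −1.91 to 0.36, adjusted P = 0.721, edgeR's test). The arm ratio passed for 0 of the 84 hairpins (0.0%), and 7 (8.33%) had an unadjusted P under 0.05 in edgeR's test. The arm ratio of miR-128 could not be followed, since miR-128-1-5p had 27 reads in all libraries, 18 in CTL and 9 in cKO, beside 10395 of miR-128-3p. None of these 27 reads was uridylated.

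**Figure D2:**
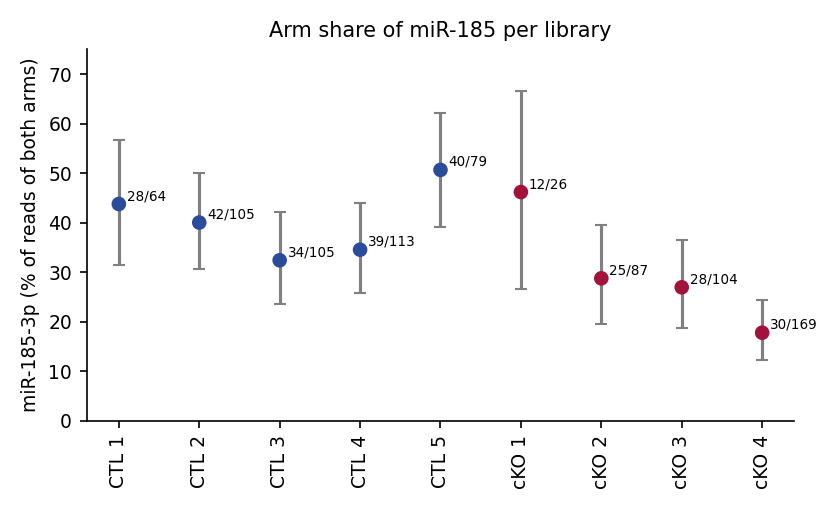
Reads of miR-185-3p as a percentage of the reads of both miR-185 arms in each library, with exact 95% binomial intervals (counting error only) and the reads behind each point. cKO replicates 2 to 4 (17.8 to 28.7%) are below all CTL libraries (32.4 to 50.6%), and cKO replicate 1, with 26 reads, is at 46.2%.

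Uridylation was lower in cKO cells for all 3 miRNAs at an adjusted P under 0.05, as it was for 85 of the 143 miRNAs tested (59.4%). Entry to this test asked for uridylated reads in CTL libraries only, which favours falls. With entry by a uridylated read in any 3 of the 9 libraries, 85 of 151 miRNAs fell and 0 rose. The 3 miRNAs were among those that fell, although miR-185-3p, with no uridylated cKO read, entered through CTL libraries in either case. The reads of miR-128-3p and miR-185-3p are shown as sequenced, with the Ts past the mature end in capitals, because these letters are the measurement.
miR-128-3p, mature end: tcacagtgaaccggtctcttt
miR-128-3p, 1 added: tcacagtgaaccggtctctttT
miR-128-3p, 2 added: tcacagtgaaccggtctctttTT
miR-128-3p, 3 added: tcacagtgaaccggtctctttTTT
miR-185-3p, mature end: aggggctggctttcctctggt
miR-185-3p, 1 added: aggggctggctttcctctggtT
miR-185-3p, 2 added: aggggctggctttcctctggtTT
For miR-128-3p these sequences had 3811, 426, 51 and 5 reads in CTL and 4707, 10, 0 and 0 reads in cKO libraries. For miR-185-3p they had 126, 25 and 3 reads in CTL and 72, 0 and 0 in cKO libraries. Both mature sequences end in T, so a T added to a read that had lost its last base gives the mature sequence again and is not counted as uridylated. None of the reads of the 3 miRNAs also fit another of the 782 mature sequences compared.

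For miR-128-3p, 58, 9, 105, 103 and 207 reads were uridylated in CTL replicates 1 to 5, which was 10.2, 1.25, 9.03, 12.4 and 12.7% of its reads. In cKO replicates 1 to 4 it was 2, 1, 5 and 2 reads, or 0.326, 0.0478, 0.248 and 0.267%. CTL replicate 2 stood apart from the other controls but was above all cKO libraries, and such a separation held for 49 of the 143 miRNAs (34.3%). The share fell from 9.09% ± 4.64 (SD, n = 5; 11.1% ± 1.75 without CTL replicate 2) to 0.222% ± 0.121 (SD, n = 4; exact permutation test on both sides, unadjusted P = 0.0159, the smallest that 5 against 4 libraries allow). Over the pooled reads the share was 53.6-fold lower (exact 95% counting interval 28.9 to 112), and 36.7-fold when leaving out cKO replicate 2. This fall ranked 14 of the 143 by fitted log2 fold change of the odds of a uridylated read, which was −5.43 with a SE of 0.80 (adjusted P = 5.49e-05, edgeR's test), and it passed in all 15 alternatives. These alternatives did not include the exclusion of miRNAs followed by a genomic T, which leaves out miR-128-3p itself. Reads with 1 or 2 added Ts have lengths that the genomic Ts at Mir128-1 could also give. The share of miR-128-3p in CTL cells was not extreme, at rank 60 of 143, where the median over the tested miRNAs was 5.75%.

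Longer tails of miR-128-3p were found in CTL libraries. Of 482 uridylated CTL reads, 426 had 1 added T, 51 had 2 and 5 had 3, so 11.6% (exact 95% interval 8.90 to 14.8%) had more than 1. Among the 95 other tested miRNAs with at least 20 such reads the median was 5% and the middle 50% lay between 1.99 and 13.1%, a range that holds the value of miR-128-3p. Reads with 2 added Ts numbered 5, 0, 8, 12 and 26 in CTL replicates 1 to 5, and those with 3 numbered 3, 0, 1, 1 and 0. The 10 uridylated reads of cKO libraries all had 1 added T.

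Reads of miR-128-3p with 1 added T fell by 5.27 on the log2 scale (SE 0.77, adjusted P = 5.92e-05, edgeR's test), where 56.6% of the 143 miRNAs fell. Those with 2 or 3 also fell (adjusted P = 2.01e-05, edgeR's test), where 30.1% of the 143 did. With 56 of 4924 reads in CTL and 0 of 5471 in cKO libraries, which allows a share of up to 0.0548%, the pooled share of reads with 2 or 3 added Ts was at least 20.7-fold lower against 3 counts over the group. With the counting error of the 56 reads included, the exact interval begins at 16.3-fold. The per-library share of these longer tails alone gave an exact permutation P of 0.0794, since CTL replicate 2 was also at 0.

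For miR-185-3p, 7 of 28, 0 of 42, 4 of 34, 8 of 39 and 10 of 40 reads were uridylated in CTL replicates 1 to 5, which was 25, 0, 11.8, 20.5 and 25%. In cKO libraries there were 0 uridylated of 12, 25, 28 and 30 reads. The 0 of 42 in CTL replicate 2 allows a share of up to 7.14%, and the 0 of 95 over the cKO libraries one of up to 3.16%. The mean CTL share of 16.5% ± 10.7 (SD, n = 5; 20.6% ± 6.24 without replicate 2) was at rank 39 of the 143. The fall passed in edgeR's test across miRNAs (adjusted P = 0.0117), whose fitted log2 fold change of −4.94 depends on the prior count because no cKO read was uridylated. Against 3 counts over the group, the pooled share of 29 in 183 reads was at least 5.02-fold lower, and the exact counting interval starts at 3.83-fold. The exact permutation test of the shares gave an unadjusted P of 0.0794 with all libraries and 0.0286, the smallest that 4 against 4 libraries allow, without CTL replicate 2. Without that library, all cKO shares were below all CTL shares for 83 of the 143 miRNAs (58.0%).

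Of the 29 uridylated reads of miR-185-3p, 26 had 1 added T and 3 had 2. Reads with 1 added T fell (adjusted P = 0.0138, edgeR's test), whereas those with 2 or 3 did not pass (3 reads against 0, adjusted P = 0.306, edgeR's test). At 95 cKO reads a change in the longer tails was not detectable.

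For miR-185-5p, 1 of 36, 1 of 63, 6 of 71, 8 of 74 and 2 of 39 reads were uridylated in CTL replicates 1 to 5, which was 2.78, 1.59, 8.45, 10.8 and 5.13%. In cKO replicates 1 to 4 it was 0 of 14, 1 of 62, 1 of 76 and 0 of 139. The groups overlapped, since cKO replicate 2 (1.61%) was slightly above CTL replicate 2. The mean share was 5.75% ± 3.86 (SD, n = 5; 6.79% ± 3.55 without CTL replicate 2) and 0.732% ± 0.854 (SD, n = 4; exact permutation test, unadjusted P = 0.0317). The log2 fold change of −2.84 (SE 0.92, adjusted P = 0.0154, edgeR's test) ranked 72 of the 143, at the median of all tested miRNAs (−2.84). Omission of CTL replicate 4 (adjusted P = 0.0597, edgeR's test) or of cKO replicate 4 (0.0840) ended the call, the latter library with 139 of the 291 cKO reads.

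The 18 uridylated CTL reads of miR-185-5p comprised 14 with 1 added T and 4 with 2. The 2 cKO reads had 1 in replicate 3 and 2 in replicate 2. Reads with 1 added T, the length that a genomic T could also give here, fell (log2 fold change −3.23, SE 1.07, adjusted P = 0.0177, edgeR's test). Those with 2 or 3 had a log2 fold change of −1.56 (95% interval −4.25 to 1.13) and did not pass (adjusted P = 0.447). A difference of the fall between the arms of miR-185, or between them and miR-128-3p, was not tested.

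**Figure D3:**
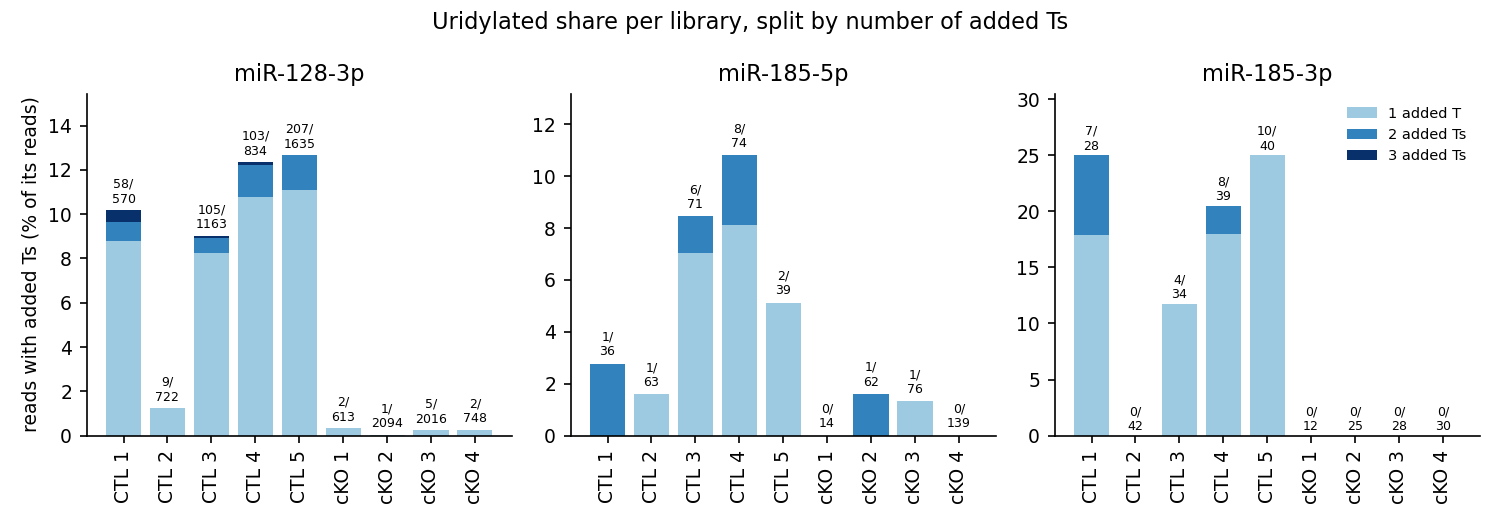
Reads with 1, 2 or 3 added Ts (stacked) as a percentage of the reads of each miRNA in each library, with uridylated over total reads above each bar and axes that start at 0. miR-128-3p is at 9.03 to 12.7% in 4 of the 5 CTL libraries and at 1.25% in replicate 2, and at most 0.326% in cKO libraries, whereas miR-185-3p has no uridylated read in any cKO library.

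**Figure D4:**
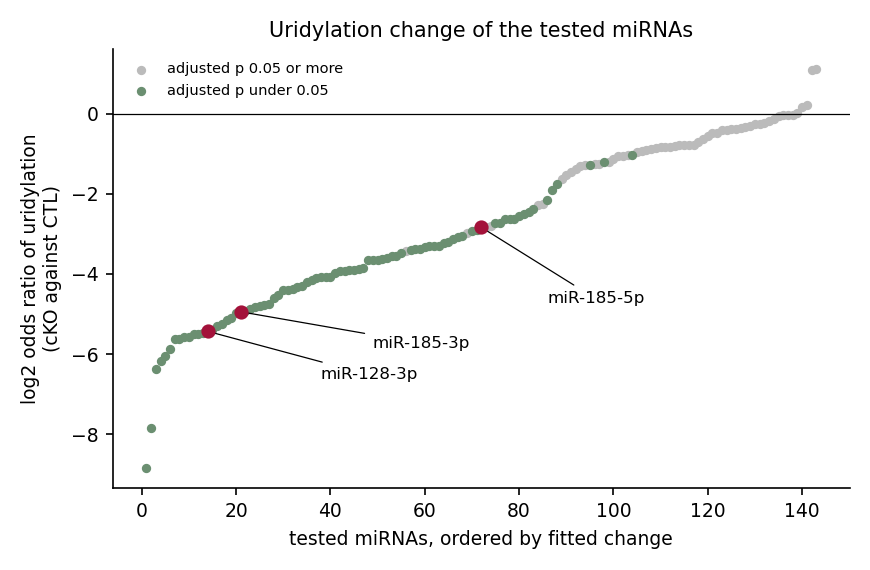
Fitted log2 odds ratio of uridylation (cKO against CTL) of the 143 tested miRNAs in order of size, with those past the threshold in green and the 3 miRNAs in red. miR-128-3p (−5.43) and miR-185-3p (−4.94, set by the prior count of the fit) are at ranks 14 and 21, and miR-185-5p (−2.84) is at rank 72.

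Reads that ended before the mature 3′ end, set against all other reads, did not pass a test between genotypes. Over reads without added Ts they did not pass either. The log2 fold change was then −0.05 for miR-128-3p and 0.56 for miR-185-5p (adjusted P = 0.983 and 0.782, edgeR's test). Of miR-128-3p reads, 18.2, 21.9, 10.6, 14.7 and 7.40% ended before the mature 3′ end in CTL replicates 1 to 5 and 13.2, 10.5, 13.0 and 24.9% in cKO replicates 1 to 4. Most of these were shorter by 1 base, with 12.7% ± 5.09 (SD, n = 5) and 13.5% ± 5.21 (SD, n = 4) of all its reads. The log2 fold change of the odds of such a trimmed read was 0.11 (95% interval −0.80 to 1.01, adjusted P = 0.963, edgeR's test over 190 miRNAs, of which 4.74% passed). Reads that ended at the mature 3′ end made up 76.3% ± 4.01 in CTL and 84.4% ± 6.49 in cKO libraries, with overlapping groups.

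Trimmed reads of miR-185-5p made up 25, 30.2, 12.7, 27.0 and 12.8% in CTL and 7.14, 19.4, 27.6 and 50.4% in cKO libraries. The highest value was in cKO replicate 4, where 62 reads lacked 1 base and 69 were full length. The log2 fold change was 0.64 (95% interval −0.62 to 1.91, adjusted P = 0.599, edgeR's test), and −0.02 without that library.

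For miR-185-3p, trimmed reads made up 10.3 to 21.4% in CTL (median 14.3%) and 16.0 to 33.3% in cKO libraries (median 25.7%). The log2 fold change was 0.91 (95% interval −0.05 to 1.87, adjusted P = 0.286, edgeR's test) over all reads and 0.61 (adjusted P = 0.660) over reads without added Ts. The median log2 fold change over all 190 miRNAs was 0.28. Reads with a shifted 5′ start, which would move the seed, were rare, with 2 of 4924 and 5 of 5471 for miR-128-3p, 2 of the 183 CTL reads of miR-185-3p and 0 of miR-185-5p.

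**Figure D5:**
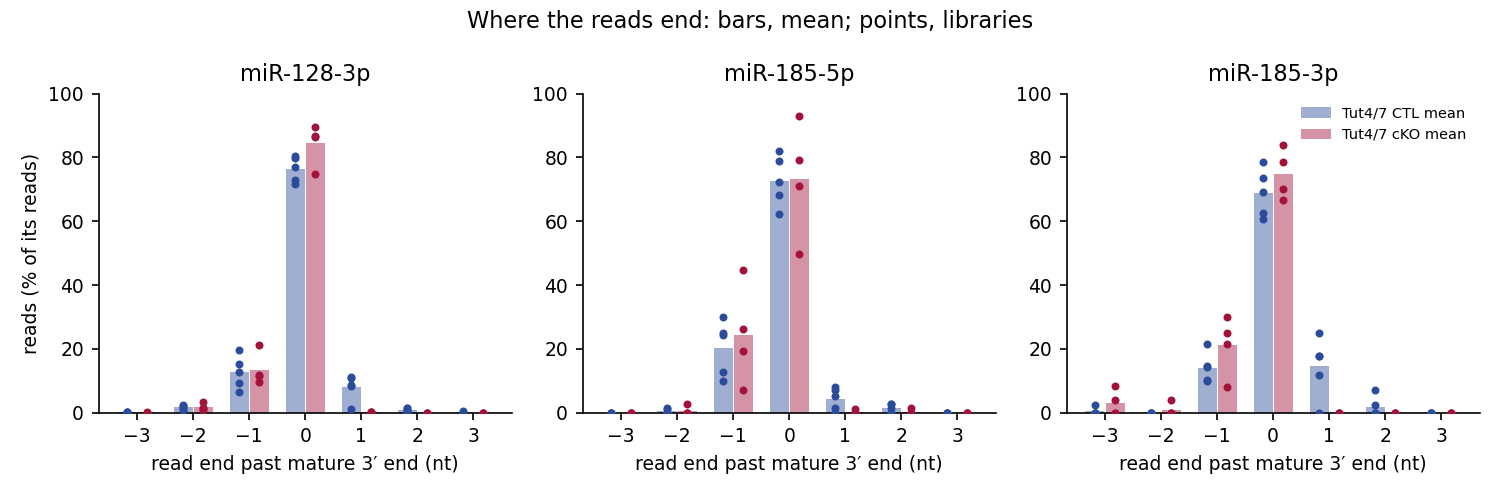
Position of the read end relative to the mature 3′ end (0), in nucleotides, as a percentage of the reads of each miRNA, with bars for the mean and points for the 5 CTL and 4 cKO libraries. Ends at 0 lead for all 3 miRNAs, ends at −1 overlap between genotypes, and ends at 1 to 3 are nearly absent in cKO libraries.

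A list of 19 other miRNAs linked to cholesterol or fatty acid genes was set beside these 3. Of the 14 that could be tested, 7 fell in uridylation and 0 rose (median log2 fold change −1.71), against 59.4% of the 143 miRNAs and a median of −2.84. For abundance 0 of the 14 passed in edgeR's test and 1 fell with DESeq2. The 7 of the 14 that fell in uridylation were miR-26a-5p, miR-27a-3p, miR-27b-3p, miR-130b-3p, miR-148b-3p, miR-182-5p and miR-223-3p, the last of which is a myeloid miRNA. The most abundant of the list, miR-26a-5p, fell from 1.02% ± 0.544 (SD, n = 5) to 0.110% ± 0.0702 (SD, n = 4; log2 fold change −3.21, SE 0.68, adjusted P = 0.000818, edgeR's test).

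miR-27b-3p, whose seed overlaps that of miR-128-3p, was uridylated at 9.41% ± 5.39 (SD, n = 5) in CTL and 0.427% ± 0.343 (SD, n = 4) in cKO libraries (log2 fold change −4.78, SE 0.82, adjusted P = 0.000128, edgeR's test). miR-27a-3p, with the same seed as miR-27b-3p, was at 0.182% ± 0.106 and had 0 uridylated of 12437 reads in cKO libraries. Pooled CTL shares were thus 9.79% for miR-128-3p, 8.84% for miR-27b-3p and 0.150% for miR-27a-3p. miR-148a-3p (0.149% ± 0.0378 and 0.0702% ± 0.0174, adjusted P = 0.0868 in edgeR's test) did not pass.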

How the data were processed

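Size-selected small RNA was sequenced from preleukemic cells, with 5 libraries for CTL and 4 for cKO. Adapters were removed with cutadapt 5.0, and reads were mapped with Bowtie 1.3.1, without mismatches, to miRBase mature sequences with 3 Ts added. The authors deposited raw read counts per miRNA and per distinct read sequence, without normalization, and marked reads that end past the mature 3′ end as uridylated. Every mark, and all sums over 817 miRNAs, were checked with 0 differences.

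Counts were tested with edgeR 4.0.16 (R 4.3.3, TMM, quasi-likelihood) or, within a library, as odds of 2 read classes with a term per library. Abundance required at least 10 reads in 4 libraries, uridylation at least 10 reads in 5 libraries and a uridylated read in 3 CTL libraries, trimmed reads 10 reads in 5 libraries and such a read in 3, and arms 10 reads over both in 4 libraries and a read of each arm in 3. P values were adjusted over all miRNAs by the Benjamini-Hochberg method, with 0.05 as the threshold. Shares of single miRNAs were compared with exact permutation tests (SciPy 1.17.1), unadjusted, with 4 main tests. These were repeated with each library left out and with other read classes, also unadjusted. Genomic bases after the mature end were read from GRCm39 near annotated miRNA genes. Intervals and limits from 3 counts cover counting error only, since reads carry no molecular identifiers. The tests were first run on simulated counts. Alternatives comprised DESeq2 1.42.0, other size factors and filters, other read classes, a replicate block and omission of each library.

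The miRNAs and lists were chosen with earlier results of these data known. Named miRNAs are the 3, their partner arms and seed relatives, the 5 most abundant of the lipid list and, per member, 3 with the most similar profile and the neighbours in level. The lipid list held miR-7a-5p, miR-19b-3p, miR-26a-5p, miR-27a-3p, miR-27b-3p, miR-30c-5p, miR-33-5p, miR-34a-5p, miR-96-5p, miR-122-5p, miR-130b-3p, miR-144-3p, miR-148a-3p, miR-148b-3p, miR-182-5p, miR-183-5p, miR-223-3p, miR-301b-3p and miR-342-3p. The other miRNAs of this list that fell, and some cell markers, are also named.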

Additional observations from a re-analysis of the deposited data

Results flagged for a closer look

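Among 32 groups of values of these miRNAs, 4 held a library far from the others of its genotype by Dixon's test, of which chance flags about 1 in 20. The abundance of miR-128-3p was 6144 CPM in CTL replicate 5, against at most 3420 CPM in the other 4 CTL libraries. The share of miR-128-3p reads with 1 added T was 1.25% in CTL replicate 2 and 8.25 to 11.1% in the others. For miR-185-5p, cKO replicate 3 was the only cKO library with a read with 1 added T (1.32%), and replicate 2 the only one with a read with 2 (1.61%), each on a single read.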

How the results depend on the processing

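The fall in uridylation of miR-128-3p passed in all 15 alternatives, with log2 fold changes from −6.50 to −4.92. The −6.50 came from reads with 2 or 3 added Ts only and depends on the prior count, since no cKO read had them. Leaving out 1 library gave −5.96 to −4.92. The fall of miR-185-3p passed in 14 of 15 and that of miR-185-5p in 12 of 15. Without CTL replicate 2, log2 fold changes were −5.96 for miR-128-3p, −5.46 for miR-185-3p and −3.21 for miR-185-5p. Their adjusted P values in edgeR's test were 1.85e-21, 7.66e-06 and 0.000498. With reads of 2 or 3 added Ts only, miR-185-5p (−1.51, adjusted P = 0.441) and miR-185-3p (−1.70, adjusted P = 0.308) did not pass in edgeR's test, and the differences in share were −1.07 percentage points for miR-128-3p (exact permutation P = 0.0794) and −0.975 for miR-185-5p (P = 0.397). Leaving out 1 library at a time gave −3.35 to −2.03 for uridylation of miR-185-5p and −4.74 to −2.46 for its reads with 1 added T, which did not pass without CTL replicate 3 or 4 or cKO replicate 4 (adjusted P = 0.0516, 0.0605 and 0.0924, edgeR's test). The differences in share ranged from −6.06 to −3.75 percentage points for miR-185-5p and from −20.6 to −14.3 for miR-185-3p, and the miR-185 arm share from −15.8 to −6.32. With 1 library left out, the share of miR-185-5p passed only without CTL replicate 2 or cKO replicate 2 (exact permutation P up to 0.0714 otherwise).

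Over all miRNAs, leaving out 1 library gave 0 to 2 calls for abundance (2 without CTL replicate 2), 2 to 11 for trimmed reads (2 to 5 when any library but CTL replicate 2 was left out), 61 to 100 for uridylation, 0 to 3 for arms (3 without cKO replicate 4) and 4 to 9 falls in the lipid list (4 without cKO replicate 3 or 4, and 9 without CTL replicate 2). Without cKO replicate 4, 68 of the 69 uridylation calls were falls and 1, in the lipid list, was a rise. Abundance calls numbered 11 with DESeq2, 18 without a filter on low counts, 0 with reads without added Ts and 0 with the replicate block. Uridylation calls numbered 43 with 2 or 3 added Ts only and 56 of 81 without miRNAs followed by a genomic T. Trimmed reads had 2 calls over reads without added Ts and 3 with the replicate block, and the lipid list 1 abundance fall with DESeq2. Causes were not tested except that fewer reads or miRNAs entered some of these. Same-numbered libraries did not deviate together (r from −0.27 to 0.36 over 4 pairs, with 2 of 4 closest to their own number), so replicate numbers were not used as pairs. With the block, log2 fold changes of uridylation were −5.19 for miR-128-3p, −4.75 for miR-185-3p and −3.09 for miR-185-5p, each past the threshold, and the block changed no other call of these miRNAs. Depth limits both arms of miR-185, with 12 to 139 reads per library.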
